A study of Mus musculus with 4 samples.

Results

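The genes described here are 10 members of the protease system that sheds the outermost layer of the epidermis: 8 kallikrein-related peptidases (Klk5, Klk6, Klk7, Klk8, Klk10, Klk11, Klk13 and Klk14), the serine protease inhibitor gene Spink5 and the membrane protease gene St14. They were chosen by gene symbol from the deposited table, which names 17849 genes, and all 10 were found. Their levels were measured by cap analysis of gene expression (CAGE), which is designed to sequence a short tag from the 5′ cap of each transcript, so that counts should not grow with transcript length and levels can be set side by side between genes. The table lists clusters of neighbouring tag starts, and a gene's level is the sum of its clusters in CPM, tags divided by the library's total and scaled to a common size.

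The 4 libraries form 1 group: lesional facial skin of C57BL/6 mice of the genotype Nectin-cre(+);Ikk2FL/FL;Postn-/-, taken at postnatal day 28 (Nectin-cre is the labels' spelling). These mice belong to the FADS model of facial dermatitis, in which a Cre recombinase deletes Ikk2, a kinase of NF-κB signalling, and they also lack Postn, the gene of the matrix protein periostin. The labels used here do not say which cells express the Cre. They also do not say if 4 animals were sampled, and p-values thus cover the spread between these 4 libraries alone, part of which may be technical. All 4 libraries carry every allele, and no library of healthy, Cre-negative or Postn-intact skin was analysed here. Each level below is therefore a description of this skin, and no effect of the dermatitis or of Postn loss can be read from it.

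Corneocytes, the dead cells at the skin surface, are held together by corneodesmosomes, junctions built from corneodesmosin, desmoglein 1 and desmocollin 1. Kallikreins are secreted as inactive precursors by granular-layer keratinocytes and, once cleaved, digest these junctions so that cells are shed. The Spink5 product LEKTI inhibits several kallikreins, and its loss causes Netherton syndrome in humans; matriptase, the St14 product, is known in mouse skin to activate kallikrein precursors.

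The libraries held 18179860, 18823630, 17630119 and 17939565 tags over all entries for libraries 1 to 4, and 1 tag was worth 0.0531 to 0.0567 CPM. Postn held 6 to 15 tags per library (0.525 ± 0.225 CPM, SD, n = 4) and Ikbkb, which encodes Ikk2, 626 to 675 tags (36.2 ± 2.06 CPM, SD, n = 4). The sources used here do not say which part of either gene is deleted, so a count of transcription starts does not check the alleles fully. Of 14 keratinocyte markers, 13 averaged at least 1 CPM, and the exception was Krt2, at 0 to 0.284 CPM. Markers of other tissues differed between libraries. Summed gland markers (salivary, lacrimal and nasal) stood at 16.2, 34039, 14.2 and 5420 CPM, summed hair follicle markers at 11162, 10115, 4777 and 6423 CPM, and summed skeletal muscle markers at 3256, 2384, 3995 and 5979 CPM in libraries 1 to 4. In such bulk samples, fewer cells of a type and less RNA per cell cannot be told apart.

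Most members were abundant. Their median level was 176 CPM, against 22.98 CPM over the 14732 genes that averaged at least 1 CPM. Klk6 was highest, at rank 134 of 17037 genes by mean level, followed by Klk7 at rank 221 and Klk10 at rank 287. Spink5 stood at rank 467, Klk13 at 560, St14 at 1236, Klk8 at 1327, Klk5 at 1465 and Klk11 at 2602. Klk14 lay far below the others, at rank 9911.

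**Figure D1:**
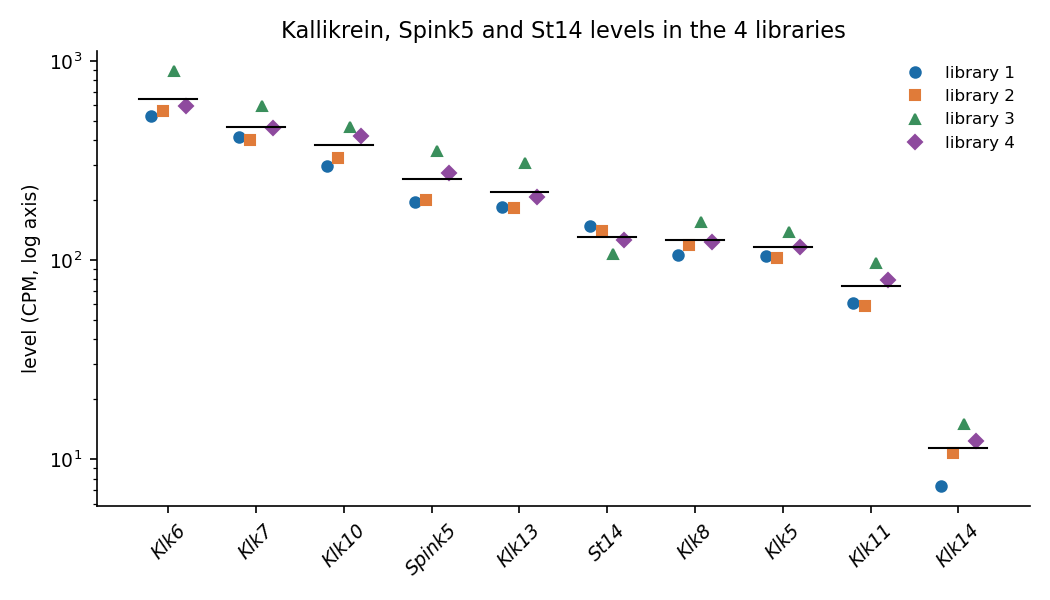
Level of each gene in CPM on a log axis, with genes ordered by mean level; symbols are the 4 libraries and bars their mean. The kallikreins and Spink5 peak in library 3, from 886 CPM for Klk6 to 15.0 CPM for Klk14, and St14 has its lowest value, 108 CPM, in the same library.

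Klk5 and Klk7 encode the trypsin-like and the chymotrypsin-like protease that are best known for digesting corneodesmosomes, and Klk5 can activate the Klk7 precursor. Klk5 stood at 105, 103, 138 and 117 CPM in libraries 1 to 4 (116 ± 15.97, SD, n = 4). Klk7 stood at 413, 399, 594 and 463 CPM (467 ± 88.6, SD, n = 4). Both genes were highest in library 3, and for each of them libraries 1 and 2 gave similar levels. Klk7 exceeded Klk5 in every library, by 3.92, 3.87, 4.30 and 3.95 times, which makes this the steadiest ratio computed among the members (log2 ratio 2.003 ± 0.069, SD, n = 4).

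Klk14, a trypsin-like protease that also takes part in shedding, was the lowest member. It held 134, 202, 264 and 221 tags in libraries 1 to 4, or 7.37, 10.7, 15.0 and 12.3 CPM (11.3 ± 3.18, SD, n = 4). Library 1 was the low sample and library 3 the high one, and its counts set the coarsest precision among the 10 genes.

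Klk6 encodes a trypsin-like protease also known from the nervous system, where it is found in oligodendrocytes. In these skins it was the most abundant member, with 529, 564, 886 and 595 CPM in libraries 1 to 4 (644 ± 164, SD, n = 4). Library 3 stood above the other 3, which lay close together. Klk8, known as neuropsin for its role in the hippocampus and also found in the upper epidermis, stood at 106, 119, 156 and 123 CPM (126 ± 21.1, SD, n = 4).

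Klk10 and Klk13 were the next highest kallikreins after Klk6 and Klk7. Klk10 had 298, 324, 467 and 418 CPM in libraries 1 to 4 (377 ± 79.2, SD, n = 4), and libraries 3 and 4 were both above libraries 1 and 2. Klk13 had 184, 183, 308 and 207 CPM (221 ± 59.7, SD, n = 4), with library 3 alone at the top. Klk11, a trypsin-like member of the family, had 61.1, 59.0, 97.1 and 79.8 CPM (74.2 ± 17.9, SD, n = 4) and the same order of libraries 3 and 4 over 1 and 2.

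The 8 kallikreins together came to 1704, 1762, 2661 and 2016 CPM in libraries 1 to 4 (2036 ± 438, SD, n = 4). Their make-up varied less than their sum. Klk6 gave 31.5 ± 1.59% of the sum, Klk7 23.04 ± 0.847%, Klk10 18.5 ± 1.53% and Klk13 10.8 ± 0.599% (SD, n = 4). Klk8 and Klk5 gave 6.23 ± 0.389% and 5.76 ± 0.415%, Klk11 3.63 ± 0.251% and Klk14 0.554 ± 0.0839%. The 8 genes lie in 1 stretch of chromosome 7 on the plus strand, in the order Klk14, Klk13, Klk11, Klk10, Klk8, Klk7, Klk6, Klk5. Level did not follow that order: going along it, mean levels were 11.3, 221, 74.2, 377, 126, 467, 644 and 116 CPM.

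Spink5 encodes the multi-domain inhibitor LEKTI. It stood at 195, 202, 353 and 273 CPM in libraries 1 to 4 (256 ± 73.9, SD, n = 4), so that libraries 3 and 4 were above libraries 1 and 2. Relative to the summed kallikreins it stood at 0.114, 0.114, 0.133 and 0.135, higher in libraries 3 and 4 (log2 ratio −3.01 ± 0.13, SD, n = 4). Spink5 exceeded Klk5 by 1.85 to 2.56 times and stood at 0.472 to 0.595 of Klk7, and both ratios were higher in libraries 3 and 4 than in libraries 1 and 2.

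St14 ran the other way. Its level was 148, 141, 108 and 126 CPM in libraries 1 to 4 (131 ± 17.8, SD, n = 4), highest in library 1 and lowest in library 3. The ratio of St14 to Spink5 was 0.761, 0.698, 0.306 and 0.462 (log2 ratio −0.93 ± 0.60, SD, n = 4), and that of St14 to the summed kallikreins was 0.0871, 0.0799, 0.0406 and 0.0626. Both ratios were lower in libraries 3 and 4 than in libraries 1 and 2. Each of these log2 ratios had 1 sign in 4 of 4 libraries, and a two-sided exact sign-flip permutation test against a ratio of 1 gave p = 0.125, the smallest p that 4 libraries allow.

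**Figure D2:**
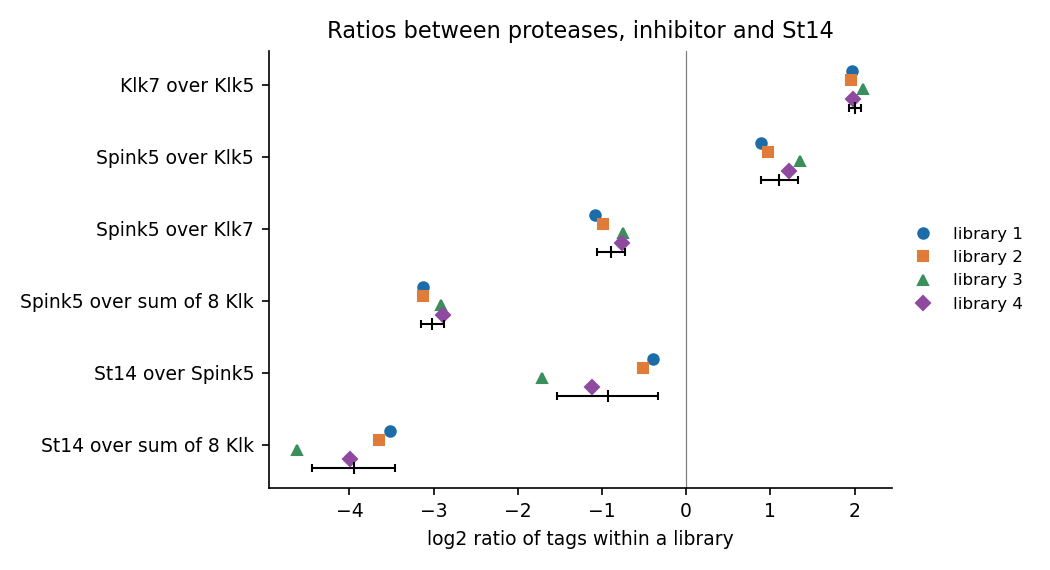
Log2 ratio of tags within each library for 6 pairs among the members; symbols are the 4 libraries, and the bar under each row is the mean with its SD. Klk7 over Klk5 is the tightest (2.003 ± 0.069) and St14 over Spink5 the widest (−0.93 ± 0.60), with library 3 at its low end.

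Neighbours in the order of levels were counted as differing beyond their spread where the upper gene was higher in 4 of 4 libraries. The mean log2 ratio also had to exceed 2 SD. The order came from mean levels in these same libraries, so the measure describes how steady each step was and tests no direction. By that measure Klk6 was above Klk7 (0.45 ± 0.11, SD, n = 4), Klk7 above Klk10 (0.32 ± 0.13) and Klk10 above Spink5 (0.58 ± 0.12). At the low end Klk5 was above Klk11 (0.66 ± 0.15) and Klk11 above Klk14 (2.72 ± 0.24). The step from Klk7 to Klk10 ended without library 2 (0.32 ± 0.16), without library 3 (0.31 ± 0.16) and with leading clusters only (0.07 ± 0.14). In the middle of the order, adjacent genes did not differ by this measure: Spink5 over Klk13 (0.20 ± 0.14), Klk13 over St14 (0.73 ± 0.55), St14 over Klk8 (0.06 ± 0.43) and Klk8 over Klk5 (0.12 ± 0.09). Klk13 nevertheless exceeded St14 in 4 of 4 libraries, and their ranges did not overlap. Leaving out a library brought Klk13 over St14 past the measure without library 3 (0.47 ± 0.22), Spink5 over Klk13 without library 4 (0.14 ± 0.06) and Klk8 over Klk5 without library 1 (0.15 ± 0.07), and leading clusters only did so for Spink5 over Klk13 (0.37 ± 0.14).

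Library 3 had the highest level of 9 of the 10 members, and of 35.3% of all tested genes. Its level over the mean of the other 3 libraries was 1.61 for Klk13, 1.58 for Spink5, 1.57 for Klk6, 1.48 for Klk14 and 1.46 for Klk11. It was 1.397 for Klk7, 1.35 for Klk10, 1.34 for Klk8 and 1.27 for Klk5, against 0.780 for St14. St14 was the member that was lowest there. After scaling the libraries by TMM factors, which set the bulk of genes level, 9 members were again highest and St14 lowest in library 3, against 27.1% of all tested genes highest and 29.3% lowest there.

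The sample codes pair the libraries, 1 with 2 and 3 with 4, in a part whose meaning the labels do not give. Libraries 3 and 4 lay above libraries 1 and 2 without overlap for 9 members, and below them for St14; in CPM the first order held for 45.6% and the second for 11.5% of all tested genes. With TMM scaling it held for 7 members, Klk6 and Klk8 being lost, against 26.3% of all tested genes, and St14 kept its order with 28.6%. Libraries 3 and 4 lay below libraries 1 and 2 for 10 of 10 hair follicle markers and above them for 8 of 8 muscle and 6 of 6 fibroblast markers, with either scaling. They lay above for 9 of 9 immune markers in CPM and 7 with TMM scaling. For basal keratinocyte markers they lay above in 4 of 6 genes in CPM and 3 with TMM scaling, and below in 0. Library 3 was the highest for 6 of 6 of these basal genes in CPM and 5 with TMM scaling. Of 7 tested granular-layer and suprabasal keratinocyte markers, 5 lay above and 2 below in libraries 3 and 4, with either scaling. The 2 were Ivl (264, 270, 207 and 150 CPM in libraries 1 to 4) and Tgm3 (96.3, 92.7, 51.9 and 34.7 CPM). Library 3 was the highest for 3 of the 7, with either scaling. The summed markers, to which Krt10 (mean 3476 CPM) and Krt1 (2642 CPM) gave the most, stood at 6063, 5149, 7852 and 7759 CPM. The kallikrein sum relative to them was 0.281, 0.342, 0.339 and 0.260 in libraries 1 to 4. Relative to summed basal markers it was 0.797, 0.926, 0.933 and 0.877. With these 2 sums as the scale, libraries 2 and 3 were nearly equal and held the highest ratios. The suprabasal sum mainly reflects Krt10 and Krt1, and ratios to the other markers of that list were not computed. The part of tissue make-up in the library differences was not tested.

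**Figure D3:**
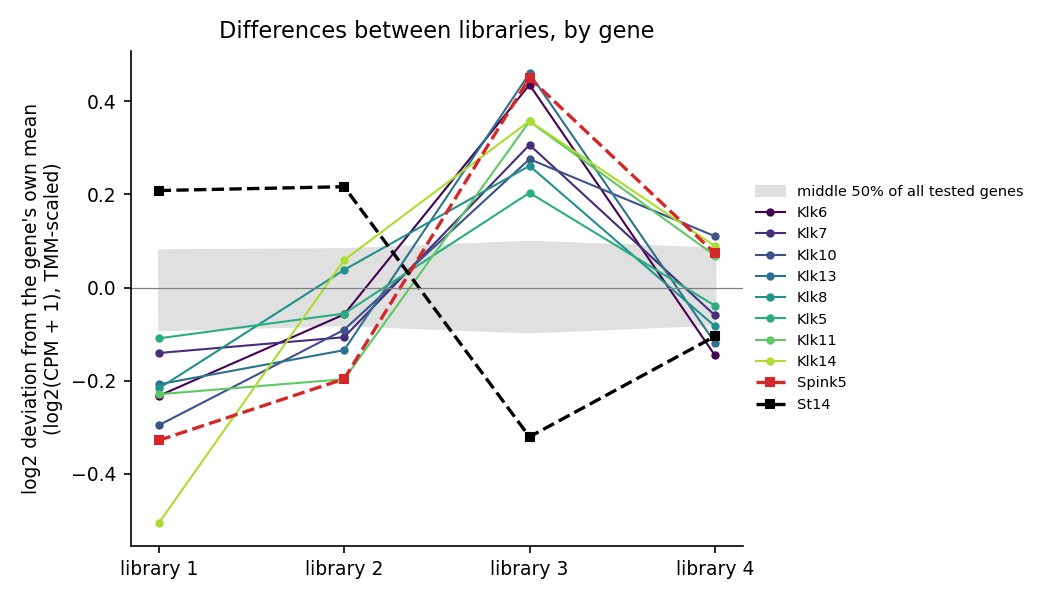
Log2 deviation of each gene from its own mean in libraries 1 to 4, on log2(CPM + 1) values scaled by TMM factors; lines are genes and the grey band holds the middle 50% of all tested genes. The 8 kallikreins and Spink5 lie above the band in library 3, and St14 lies below it there and above it in libraries 1 and 2.

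None of the 10 members passed the test of spread, which sets a gene's variance over the 4 libraries against that of genes with a similar mean (limma on log2(CPM + 1), one-sided F test, Benjamini-Hochberg adjustment at 0.05); 0.38% of all tested genes passed. The unadjusted limma p was under 0.05 for 3 members, Spink5, Klk13 and Klk11, and for 6.27% of all tested genes. The adjusted limma p was 0.661 for Spink5, 0.723 for Klk13 and 0.771 for Klk11. edgeR on the recovered tags called 0 members and 0.224% of all tested genes, with the same 3 members at an unadjusted p under 0.05. The range over the libraries on the log2(CPM + 1) scale was 0.86 for Klk14, 0.78 for Spink5, 0.67 for Klk6 and Klk13, 0.54 for St14 and 0.31 for Klk5. The members' median range was 0.58, against 0.28 over all tested genes. Larger spreads than the members' also failed to pass. The 3 hair follicle markers that passed had a highest CPM 6.89 to 7.25 times their lowest. Krt86, at 6.08 times, and Krt31, at 4.26 times, did not pass. The members ran from 1.34 times for Klk5 to 2.03 times for Klk14. Their not passing therefore does not show that they were steady between libraries, and the same limit applies to the lists below. Without library 3 the members' median range was 0.28, against 0.21 over all tested genes, and the range was 0.40 for Spink5, 0.17 for Klk6, 0.089 for Klk13 and 0.070 for Klk5. Without library 1 the range of Klk14 came to 0.31.

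The members' transcription starts fell into 63 named clusters, of which 33 held at least 3 tags in every library and 20 averaged at least 1 CPM. In 7 of the 10 genes the leading cluster, the one with the highest mean level, spanned an annotated start (GENCODE M21 on GRCm38). The share over all tested genes was not computed, so it is not known if 7 of 10 is unusual. The leading cluster held a median of 94.3% of a member's tags, against 99.7% over all tested genes. Members had a median of 6.5 clusters and all tested genes a median of 2, without adjustment for their higher level. Spink5 and Klk14 had 1 cluster each, and Klk10 and Klk13 had 13 each.

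**Figure D4:**
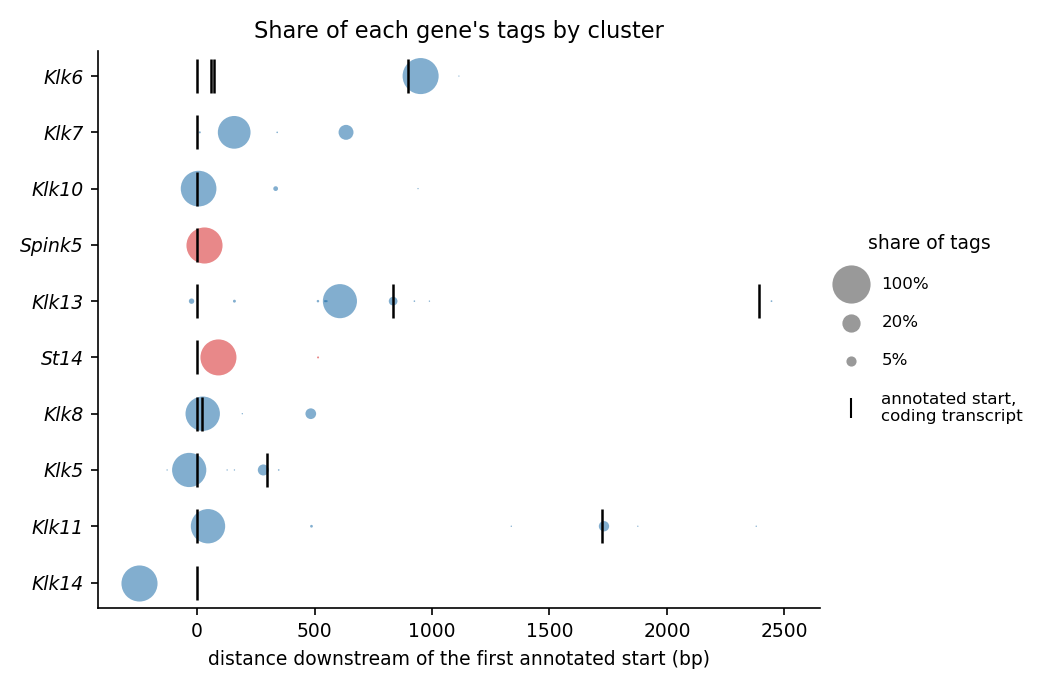
Clusters of each gene by the distance of their midpoint downstream of the first annotated start, in bp; disc area is the share of the gene's tags and vertical ticks are annotated starts of coding transcripts. The leading discs of Klk7, Klk13 and Klk14 are centred off every tick and span none of these starts, and the Klk6 disc sits at the downstream start.

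Most Klk7 tags lay away from the annotated start. The gene's 1 annotated transcript starts at 43811294 on chromosome 7, where a cluster at chr7:43811288-43811323 held 0.321 ± 0.0243% of the tags (SD, n = 4) and 1.49 CPM. The leading cluster, chr7:43811441-43811463 on the plus strand, lay 147 bp downstream in the 5′ untranslated part of exon 1 and held 82.3 ± 1.02%. It was 23 bp wide, and 4.99% of all tested genes had a leading cluster that narrow; its sequence, read from the GENCODE transcript on GRCm38, is shown because most Klk7 tags start within these bases.
Klk7 leading cluster: CTGGAGACACTGGTCTCCGGATC
Most other Klk7 tags lay in a cluster of 17 bp at chr7:43811920-43811936, which spans the first base of exon 2 and held 16.99 ± 1.10% of them all. Its share was 16.5, 15.9, 18.5 and 17.14% in libraries 1 to 4. The 95% Wilson interval was 15.1 to 16.7% in library 2 and 17.7 to 19.2% in library 3, which do not overlap; these intervals cover counting error only, since tags carry no molecular identifiers here.

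Klk6 has annotated starts in 2 places, and nearly all its tags lay in a cluster over the downstream one. The cluster chr7:43825354-43825547 spans the start of Klk6-202 at 43825395 and held 99.8 ± 0.0853% of the Klk6 tags (SD, n = 4), or 642 CPM. The same cluster also spans the first base, at 43825510, of a later exon of Klk6-201 and Klk6-203, which begin upstream, and the table does not give tag positions within it. No listed Klk6 cluster lay at the upstream starts themselves, of which the first is that of Klk6-203 at 43824499. The sequences of both places are printed to set the start with tags beside the one without a listed cluster. They come from the RefSeq promoter table (GRCm38.p6, plus strand), end 30 bases into the first GENCODE transcript there, and carry in capitals the bases of the leading cluster, which the upstream window lacks.
Klk6, downstream start, chr7:43825200-43825424: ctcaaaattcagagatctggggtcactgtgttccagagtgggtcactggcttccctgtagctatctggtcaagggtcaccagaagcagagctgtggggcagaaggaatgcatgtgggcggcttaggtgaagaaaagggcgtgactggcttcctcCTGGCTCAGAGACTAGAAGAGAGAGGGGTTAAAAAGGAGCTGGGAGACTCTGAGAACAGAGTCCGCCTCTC
Klk6, upstream start, chr7:43824294-43824528: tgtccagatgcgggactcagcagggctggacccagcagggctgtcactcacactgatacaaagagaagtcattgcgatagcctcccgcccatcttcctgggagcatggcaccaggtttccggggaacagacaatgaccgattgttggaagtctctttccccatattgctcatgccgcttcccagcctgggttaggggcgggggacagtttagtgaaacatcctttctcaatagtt

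Klk13 and Klk14 were led by clusters away from their annotated starts. The Klk13 leading cluster, chr7:43713122-43713228, lay in an intron 171 bp upstream of the start of Klk13-203 and held 89.2 ± 0.844% of the tags (SD, n = 4). Clusters on the annotated starts of Klk13-203 and Klk13-201 held 5.87 ± 0.264% and 2.29 ± 0.375%. The share of the leading cluster was 88.6, 88.8, 90.5 and 89.0% in libraries 1 to 4. Klk14 had its sole cluster at chr7:43690096-43690246, 172 bp upstream of the annotated start at 43690418.

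Klk5, Klk8 and Klk11 each had a leading cluster on an annotated start with 90.0 ± 0.729%, 90.9 ± 0.684% and 90.7 ± 0.757% of the tags (SD, n = 4), and a further cluster with most of the rest. The Klk5 tags lay mainly at chr7:43841854-43842021 on the start of Klk5-202, and 9.32 ± 0.710% lay on that of Klk5-201, in a cluster that also spans the first base of a later exon of Klk5-202. For Klk11, chr7:43774553-43774748 on the start of Klk11-201 led, and 8.10 ± 0.674% lay on that of Klk11-202. In Klk8, chr7:43797545-43797657 spans the starts of both annotated coding transcripts, and 8.85 ± 0.786% lay at chr7:43798021-43798101, over the first coding base and off every annotated start; it also spans the first base of a later exon, at 43798055. Klk10 was led by chr7:43780999-43781084 with 97.7 ± 0.237%.

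RefSeq promoter windows, from 250 bases before to 50 after a gene's start, were matched for 8 members (10 windows), and 5 windows held at least 20 bp of the gene's leading cluster: those of Klk6 (downstream), Klk8, Klk10, Klk11 and Klk14. TATAAA (gene strand) was in 0 of the 5 windows and in 8.32% of 32851 windows; TGANTCA, the AP-1 motif (both strands), in 0 and in 7.81%; ACCGGTT, a Grainyhead motif (both strands), in 0 and in 1.02%. CACCC was in 3 of 5 and in 57.5%, GGGCGG in 2 of 5 and in 35.7%, and CCAAT in 0 of 5 and in 37.4% (both strands each). Unlike the 5, the 32851 windows were taken whether or not a cluster lay in them, so the 2 sets are not alike. A stretch of the letters TTAAAA on the gene strand, chosen after the sequences had been seen, was in 4 of 5 and in 11.8% of all windows. It lay inside the leading cluster in Klk6, Klk8 and Klk10, and in Klk11 it lay 233 bases before the RefSeq start and outside the cluster. These 3 stretches are shown because they share the motif, in capitals, within the bases where tags start (GRCm38.p6, chromosome 7, plus strand).
Klk6, chr7:43825362-43825407: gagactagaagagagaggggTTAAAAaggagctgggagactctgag
Klk8, chr7:43797531-43797576: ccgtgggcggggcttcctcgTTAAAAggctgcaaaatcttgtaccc
Klk10, chr7:43781017-43781062: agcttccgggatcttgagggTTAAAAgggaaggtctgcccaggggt
The table does not give tag positions within a cluster, so the distance from the motif to the starts was not measured.

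All tags in named Spink5 clusters lay in chr18:43963204-43963323, which spans both the annotated start at 43963235 and the first coding base. Of the tags in named St14 clusters 99.7 ± 0.0728% (SD, n = 4) lay in chr9:31131663-31131861 on the minus strand, over the start of St14-201.

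Of 18 other kallikrein genes listed, 2 had a value, Klk9 and Klk12, and the other 16 were not analysed here. Klk9 stood at 56.9, 53.7, 105 and 71.6 CPM in libraries 1 to 4 (71.8 ± 23.5, SD, n = 4), highest in library 3 like the 8 members. Klk12 averaged 10.6 ± 4.50 CPM, with the same library on top. Neither passed the limma test of spread (adjusted p = 0.5503 for Klk9 and 0.717 for Klk12). Both had an unadjusted limma p under 0.05, and edgeR called neither.

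Proteases other than kallikreins were held against the members from a list of 23, of which 19 were tested and 0 passed the limma test (6 at an unadjusted p under 0.05, and 0 by edgeR). The highest were Asprv1, which processes filaggrin (608 ± 100 CPM, SD, n = 4), the lysosomal cathepsins Ctsd (491 ± 37.6 CPM), Ctsb (482 ± 70.0 CPM) and Ctsl (317 ± 19.9 CPM), and Blmh, which degrades filaggrin (286 ± 15.5 CPM). Ctsb resembled St14 in its order, with 562, 519, 419 and 428 CPM in libraries 1 to 4. Of the 19 tested genes of this list, 13 were highest in library 3 in CPM, against 35.3% of all tested genes, and 10 with TMM scaling, against 27.1%.

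Protease inhibitors other than Spink5 came from a list of 23, of which 19 were tested and 0 passed the limma test (7 at an unadjusted p under 0.05, and 0 by edgeR). Cst6, which encodes the cysteine protease inhibitor cystatin M/E, was the highest at 1127 ± 103 CPM (SD, n = 4), above Spink5. Spint2, an inhibitor of matriptase, stood at 234, 238, 250 and 239 CPM in libraries 1 to 4 (240 ± 7.00). Serpinb5 stood at 209 ± 13.0 CPM. Spint1, which encodes the main matriptase inhibitor of epithelia, stood at 106, 102, 84.9 and 92.0 CPM in libraries 1 to 4 (96.2 ± 9.61). Libraries 3 and 4 thus lay below libraries 1 and 2, as for St14 but not for Spint2. In CPM this order held for 2 of the 19 tested inhibitors, against 11.5% of all tested genes. With TMM scaling it held for 3, against 28.6%. Serpinb6a stood at 78.0 ± 9.68 CPM. Library 3 was the highest for 12 of the 19 tested inhibitors in CPM, against 35.3% of all tested genes. With TMM scaling it was the highest for 9, against 27.1%.

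Substrates of the kallikreins came from a list of 10, of which 9 were tested and 0 passed the limma test (2 at an unadjusted p under 0.05, and 0 by edgeR). Of the corneodesmosome genes, Cdsn stood at 509 ± 26.4 CPM, Dsc1 at 301 ± 24.7 CPM and Dsg1a at 209 ± 15.9 CPM (SD, n = 4). Dsg1b stood at 144, 155, 231 and 152 CPM in libraries 1 to 4, with library 3 alone at the top as for Klk6 and Klk13. Dsg1c, named after its values were seen, stood at 2.64, 2.50, 7.77 and 6.02 CPM, with libraries 3 and 4 above libraries 1 and 2. These last 2 desmoglein genes were the substrates with an unadjusted limma p under 0.05, and their adjusted limma p was 0.753 for Dsg1b and 0.722 for Dsg1c. Flg, which encodes filaggrin, stood at 425 ± 81.8 CPM. Library 3 was the highest for 6 of the 9 tested substrates in CPM, against 35.3% of all tested genes. With TMM scaling it was again the highest for 6, against 27.1%.

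Likeness between genes was measured as the root mean square difference of their log2 deviations over the 4 libraries. The members nearest to each other were Klk6 and Klk13 (0.0443), Klk5 and Klk7 (0.0604), and Spink5 and Klk11 (0.0682). St14 was the farthest member from each of the other 9, at 0.337 from Klk5 to 0.521 from Spink5. Outside the lists, genes close to Klk6 were Car4 (0.0158) and Gm47128 (0.0270), with a median of 0.282 over all other tested genes. Spink5 was closest to Ifi202b (0.0288), Podn (0.0295) and Als2cl (0.0307), with a median of 0.314. Picked as the smallest of very many distances over 4 libraries, such values are small by selection. Each of them lay below the smallest distance between members, 0.0443.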

How the data were processed

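The authors deposited CPM values for 69391 entries (cluster, gene, 4 libraries); per the submitters' processing notes BWA and HISAT2 were used, with no version given, and the build named is mm9. Of the named clusters 99.953% lay within 1000 bp of their gene on GRCm38, so positions are given on GRCm38, with starts uncertain by 1 bp. How tags were joined into clusters was not stated in the sources. All deposited CPM were whole multiples of 1 tag (tolerance 0.02 tags), so whole tags were recovered; 20326 distinct clusters with no gene name entered the totals and no test. Column-purified total RNA was used, per the labels.

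Clusters were summed per gene. Of 17849 genes 17037 were kept, leaving out genes with no tag and those for which 90% or more of the tags fell in clusters credited to another gene. Genes averaging at least 1 CPM were tested for spread with limma 3.58.1 on log2(CPM + 1), scaled by TMM factors (0.988, 0.931, 1.04 and 1.05), with a trended robust prior (3.49 prior degrees of freedom, the same for every gene). The design named a count test, but the unit was CPM, so edgeR 4.0.16 on recovered tags became an alternative, as did DESeq2 1.42.0 size factors. The test was tested on simulated data; a version with prior degrees of freedom per gene recovered no changed gene there and was replaced. Ratios added 0.5 tags to each side. Promoter sequences are RefSeq's. The members and lists were chosen with earlier results of these data known. All members are named, with the 5 highest genes of each list and the 3 genes most like Spink5 and Klk6, of which 1 is not reported here.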

Additional observations from a re-analysis of the deposited data

Results flagged for a closer look

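Clusters without a gene name were outside the levels given above, and 82 of them lay inside the members, 76 on the gene's strand. Each of the following 9 averaged at least 1 CPM with at least 3 tags in every library, which is why it is listed; there is no control library to set it against. The largest lay in an intron of St14 (31120733 to 31120900, chromosome 9), at 17.0, 14.6, 9.93 and 10.6 CPM in libraries 1 to 4 and a mean of 13.0 CPM, lower in libraries 3 and 4 like St14 itself. St14 also held 3.55 CPM over the start of an exon (31108625 to 31108732) and 1.01 CPM on the opposite strand in an intron (31130412 to 31130429). Klk13 held 9.47 CPM at 43720963 to 43721112 on chromosome 7, with 6.27, 8.18, 14.3 and 9.14 CPM in libraries 1 to 4. Smaller ones averaged 2.30 CPM in Klk8, 1.39 CPM in the last exon of Klk7 and 1.12 CPM in Klk10. In Spink5, 1.06 CPM lay at 44007626 to 44007728 and 1.22 CPM at 44009906 to 44009996 on chromosome 18.

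Of these 9 clusters, 6 (in Klk8, Klk10, Klk13 and St14 and both in Spink5) spanned the first base of an exon after the first. Counting smaller ones, 27 of the 82 did so, and 17 of them were in Spink5, whose transcript has 32 exons; these 17 summed to 7.06 CPM, or 2.76% of the named Spink5 level. Of 8 named clusters of at least 1 CPM that lay off every annotated start, 2 have the same placement, that of Klk7 at the start of exon 2 and that of Klk8 over the first coding base. What gives rise to tags there was not tested, and the share of clusters with this placement over all genes was not computed. In none of the 31 levels, shares and ratios checked did the gap between the highest or lowest library and its nearest neighbour, divided by the range, pass Dixon's 95% critical value, which is hard to pass with 4 samples.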

How the results depend on the processing

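The count of genes that passed the test of spread depended on the processing: 56 as reported, 104 without scaling, 34 with DESeq2 size factors, 30 with a pseudocount of 0.1 CPM, 16 with genes of at least 5 CPM and 33 by edgeR. It was 0 with means of libraries that share a code part (763 at an unadjusted p under 0.05), and 10 (without library 4) to 111 (without library 3) when a library was left out. Chosen after seeing the data, TMM factors from the tested genes only gave 34, TMM factors from gene sums 61 and prior degrees of freedom per gene 0 (0 at an unadjusted p under 0.05). Members called stayed at 0 under all 15 alternatives, with 0 to 5 at an unadjusted p under 0.05. That lowest number, 0, came without library 3 and with per-gene degrees of freedom. With means by code part and with per-gene degrees of freedom no gene at all was called, so 0 members was fixed there. How small a spread the other alternatives could call was not measured, so 0 members there does not show steady levels.

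All 70 alternative levels of members moved by less than 1 SD over the libraries, and all 50 alternative leading shares by less than the SD or the mean distance to its 95% Wilson bounds, whichever was larger. St14 over Klk8 (log2 0.06) ran between −0.0835 (without library 1) and 0.255 (without library 3) when a library was left out, and reversed without library 1 and, at −0.000680, without library 2. With leading clusters only, Klk6 over Klk7 was 0.73, Klk7 over Klk10 0.07 and Spink5 over Klk13 0.37. Library 3 was highest for 9 members on all 5 scales tried; 4 of these, chosen after seeing the data, were alternatives to CPM. No paired analysis was possible because all 4 libraries form 1 group. Depth limits Klk14 most, at 134 to 264 tags.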
